A study of Mus musculus with 8 samples.

Results

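The 45 genes described here encode collagens, other extracellular matrix proteins, contractile proteins and surface receptors that are typical of fibroblast-like stromal cells. They were taken by symbol from a fixed list, and all 45 stood among the 53647 genes of the count table. PolyA RNA had been sequenced from C57BL/6 mouse leukemia macrophages that were sorted after 12 h of culture. For 4 libraries, called E-Mac (MSC-educated), the macrophages had been co-cultured with mesenchymal stromal cells (MSC), and for the other 4, called Mac, they had been cultured alone. The labels give no further genotype, treatment, age or sex, and do not name the gate of the sort, the source of the MSC or the leukemia model. Nor do they say whether the 4 libraries of a group are biologically separate, and p-values therefore reflect only how far these samples spread, which may be technical.

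Fibrillar collagens are secreted as procollagen chains, fold with the help of the chaperone encoded by Serpinh1, and are crosslinked in the matrix by lysyl oxidases. Basement membranes form from type IV collagen, nidogen and perlecan, and matricellular proteins such as tenascin C adjust how cells attach to these fibres. MSC and fibroblasts are the main producers of this matrix in bone marrow, while macrophages are better known for taking it up and remodelling it. MSC were present only in the E-Mac dishes, so stromal RNA that came through the sort and expression of these genes by the macrophages themselves cannot be told apart in these bulk libraries. Likewise, fewer cells of a type and less RNA per cell cannot be told apart.

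The 45 genes together stood at 158, 738, 115 and 870 CPM in E-Mac 1 to 4, against 34.9, 33.0, 34.0 and 31.1 CPM in Mac 1 to 4. CPM scales each library to 1000000 counts in the tested genes, after TMM adjustment for RNA composition. The lowest E-Mac library was above the highest Mac library, and E-Mac 2 and 4 lay far above E-Mac 1 and 3. The genes held 0.0108 to 0.0842% of the counts of an E-Mac library and 0.00328 to 0.00372% of a Mac library. Total counts were 13377046 to 15740846 in E-Mac and 11646025 to 15556935 in Mac. Over all tested genes, too, the second principal component separated E-Mac 2 and 4 (20.6 and 28.9) from E-Mac 1 and 3 (-26.2 and -22.0), and most values below are therefore given for each library.

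**Figure D1:**
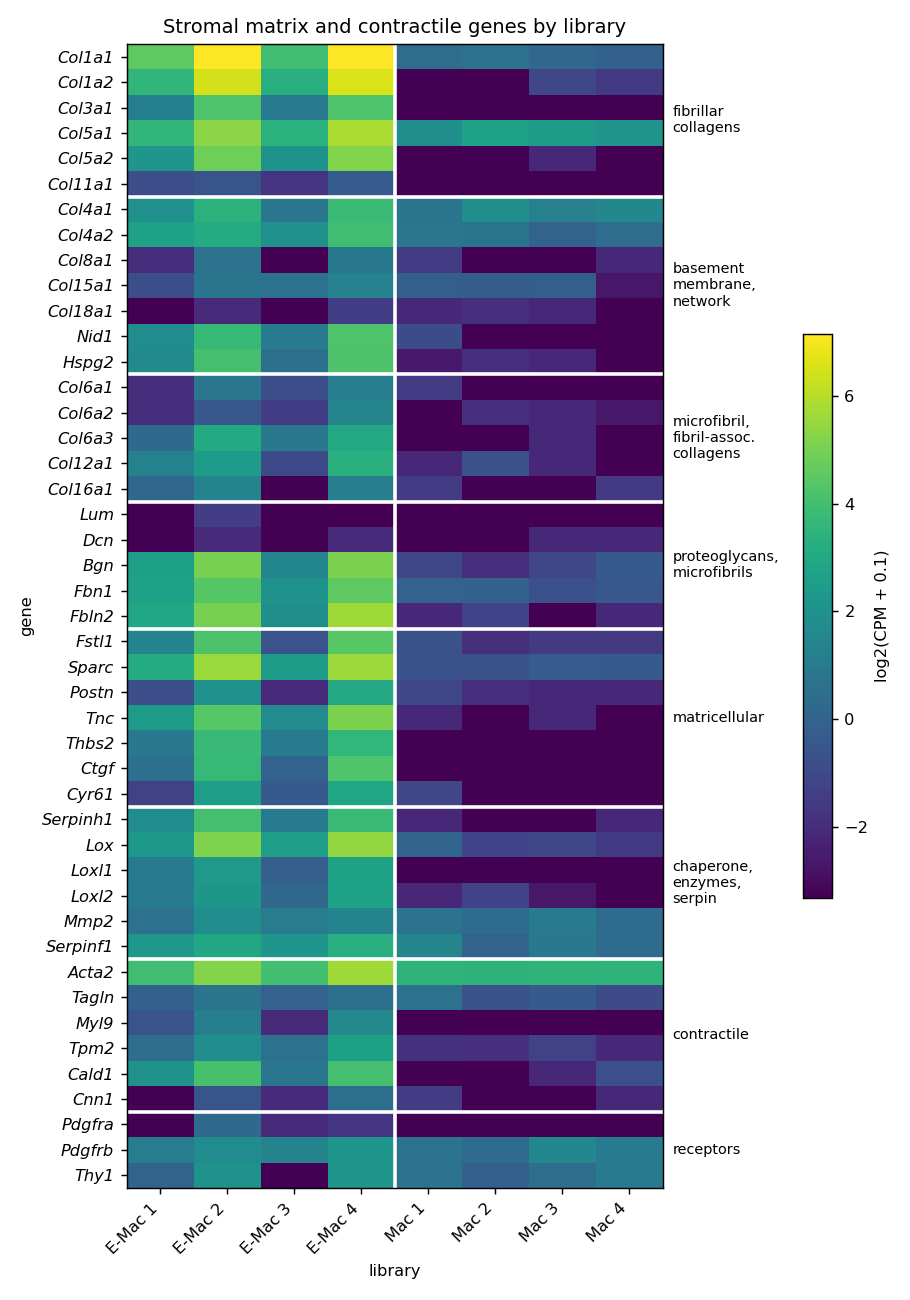
Level of each of the 45 genes (rows, grouped by role) in each library (columns, E-Mac left and Mac right), as log2(CPM + 0.1). For 44 of the 45 genes the squares of E-Mac 2 and 4 are both brighter than those of E-Mac 1 and 3, and the Mac side is dark except for Acta2, Col5a1, Col4a1 and a few others.

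Of the 45 genes 30 passed the filter on low counts (at least 0.656 CPM in 4 or more libraries and 15 counts in all), 20 of them only because all 4 E-Mac libraries reached it while fewer than 4 Mac libraries did. In 15 of those 20 no Mac library reached it, so that these 15 had to be higher in E-Mac. By edgeR's quasi-likelihood test with Benjamini-Hochberg adjustment over all 13412 genes tested (adjusted p under 0.05), 23 of the 30 tested were higher in E-Mac and 0 lower. Among all genes tested 58.3% differed, 29.5% higher and 28.8% lower. At an unadjusted p under 0.05 no gene of the 45 was lower either, and DESeq2 and limma-voom gave 0 lower as well. In 27 of the 45, all 4 E-Mac libraries lay above all 4 Mac libraries, which was so for 26.7% of all genes tested. Of these 27, Col11a1, Fstl1 and Myl9 were too low to test, whereas the share covers tested genes only. In 0 of the 45 did all Mac libraries lie above all E-Mac libraries (27.2% of all genes tested).

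Counts in Mac were small for most of these genes, and small counts need care in this table. In each library the genes with 2 counts were 1.69 to 1.93 times as many as those with 1 count, and 69.2 to 71.2% of counts from 2 to 21 were even, against 47.8 to 51.8% of counts of 2000 or more. The sources used here do not state whether both reads of a pair were counted, and intervals and floors below cover counting error only. Where all 4 Mac libraries had 0 counts, the fold is a lower bound, set by a floor of 3 counts summed over them (0.0495 CPM).

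Fibrillar collagens held the most counts of the 8 roles in E-Mac, with 53.6, 319, 40.9 and 347 CPM in E-Mac 1 to 4, against 4.91, 7.66, 6.70 and 5.24 CPM in Mac 1 to 4. All 6 genes were higher in each E-Mac library than in any Mac library. Col1a1 and Col1a2 encode the chains of type I collagen, the main fibre of bone and connective tissue. Col1a1 stood at 23.2, 141, 15.2 and 142 CPM in E-Mac 1 to 4, against 1.24, 1.42, 0.983 and 0.863 CPM in Mac 1 to 4. The gene was detected at a low, even level in every Mac library, and its log2 fold change was 6.17 ± 1.11 (standard error, n = 4 and 4, edgeR adjusted p = 0.00276). Col1a2 had 151, 1308, 141 and 1294 counts in E-Mac 1 to 4, against 0, 0, 6 and 4 counts in Mac 1 to 4. The groups lay far apart (8.21 ± 1.52, edgeR adjusted p = 0.00311), although limma-voom gave an adjusted p of 0.0539, and the log2 fold change was 9.01 without Mac 3. On mm10, Col1a1 lies at chr11:94936224-94953042 and Col1a2 at chr6:4504814-4541544, both annotated as protein coding.

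Type III collagen, encoded by Col3a1 and often found in fibres with type I, had 28, 277, 27 and 267 counts in E-Mac and 0 in each Mac library. It was at least 215.6-fold higher in E-Mac (edgeR adjusted p = 0.0360), but the call did not hold when E-Mac 1, 2 or 4 was left out in turn (edgeR adjusted p = 0.0603, 0.0726 and 0.108) or when no genes were filtered (0.0921). Type V collagen nucleates the type I fibrils, and its chains had unlike counts in Mac. Col5a1 held 151, 583, 152 and 785 counts in E-Mac, against 59, 75, 85 and 67 in Mac, whereas Col5a2 held 55, 409, 59 and 503 counts in E-Mac, against 0, 0, 2 and 0 in Mac. The log2 fold change of Col5a1 was 2.64 ± 0.65 (edgeR adjusted p = 0.0103). For Col5a2 the ratio of summed counts was 554 (95% counting interval 153 to 4580, edgeR adjusted p = 0.00269), and without Mac 3 the gene had 0 counts in Mac. Col11a1, a minor fibrillar chain of cartilage, had 6, 8, 3 and 10 counts in E-Mac and 0 in Mac, at least 9.72-fold higher, and was too low to test.

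Basement membrane and network genes were less uniform. Hspg2, which encodes perlecan, had 40, 238, 20 and 262 counts in E-Mac 1 to 4, against 1, 2, 2 and 0 in Mac 1 to 4. Nid1, which encodes the linker protein nidogen 1, had 43, 187, 28 and 266 counts in E-Mac, against 7, 0, 0 and 0 in Mac. Both rose (6.77 ± 1.32 and 6.24 ± 1.22, edgeR adjusted p = 0.00279 and 0.00266). The Nid1 counts of Mac all came from Mac 1, and the Nid1 value was 5.62 without E-Mac 4. The type IV collagen chains share a divergent start region, with Col4a1 at chr8:11198423-11312826 and Col4a2 at chr8:11312805-11449287 on opposite strands, and their chains assemble in 1 protomer. Col4a2 was 6.31, 8.67, 3.77 and 15.02 CPM in E-Mac, against 1.62, 1.58, 0.921 and 1.23 CPM in Mac (2.66 ± 0.41, edgeR adjusted p = 0.000158). Col4a1 was 3.74, 10.4, 1.62 and 14.1 CPM in E-Mac, against 1.55, 3.50, 2.27 and 2.90 CPM in Mac, and did not pass (1.56 ± 0.61, edgeR adjusted p = 0.0549). Leaving out E-Mac 2 and 4 gave 0.075 ± 0.36 for Col4a1 (edgeR adjusted p = 0.871), and leaving out E-Mac 1 and 3 gave 2.29 ± 0.24 (edgeR adjusted p = 1.61e-07). Col15a1 (1.27 ± 0.56, edgeR adjusted p = 0.0688) did not pass, with 6, 22, 21 and 33 counts in E-Mac, against 13, 9, 13 and 1 in Mac. Col8a1 had 2, 21, 0 and 25 counts in E-Mac, against 4, 0, 0 and 2 in Mac, and with Col18a1 was too low to test. Col18a1, whose protein is cut to give endostatin, had 0, 2, 0 and 4 counts in E-Mac and 2, 2, 2 and 0 in Mac, so its groups overlapped.

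The 5 microfibril and fibril-associated collagens together had 61, 271, 43 and 346 counts in E-Mac 1 to 4, against 10, 8, 6 and 5 counts in Mac 1 to 4. Of these only Col6a3, a chain of the beaded filaments of type VI collagen, passed the filter. Its 14, 123, 26 and 111 counts in E-Mac stood against 0, 0, 2 and 0 in Mac, a ratio of 148 (95% counting interval 40.6 to 1228, edgeR adjusted p = 0.000453), and without Mac 3 the gene had 0 counts in Mac. Col6a1 and Col6a2, the other chains of type VI collagen, and Col12a1 and Col16a1, which coat fibrils, had at most 30, 36, 139 and 36 counts in any library. Each was higher in E-Mac 2 and 4 than in every Mac library, while E-Mac 1, E-Mac 3 or both lay within the Mac range.

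Among the fibril proteoglycans and microfibril proteins the genes split sharply. Biglycan (Bgn) was 5.92, 32.0, 2.69 and 33.7 CPM in E-Mac, against 0.373, 0.167, 0.369 and 0.678 CPM in Mac (5.47 ± 1.15, edgeR adjusted p = 0.00532). Fibrillin 1 (Fbn1, 4.27 ± 0.68, adjusted p = 0.000633) and fibulin 2 (Fbln2, 7.36 ± 1.42, adjusted p = 0.00352) rose too, to 13.5 ± 9.68 and 23.2 ± 21.8 CPM in E-Mac, against 0.703 ± 0.180 and 0.145 ± 0.138 CPM in Mac (SD, n = 4 each). For Fbln2 the log2 fold change was 6.67 without E-Mac 4 and 8.03 without Mac 2. Decorin (Dcn) and lumican (Lum), small collagen-binding proteoglycans that many fibroblasts make in quantity, were nearly absent. Dcn had 0, 2, 0 and 2 counts in E-Mac and 0, 0, 2 and 2 in Mac, and Lum had 0, 4, 0 and 0 in E-Mac and 0 in Mac. Lum was the 1 gene of the 45 in which E-Mac 2 and 4 did not both lie above E-Mac 1 and 3.

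The 7 matricellular genes summed to 20.3, 123, 12.4 and 150 CPM in E-Mac 1 to 4, against 1.86, 0.833, 1.23 and 1.05 CPM in Mac 1 to 4. Sparc, a collagen-binding protein of bone matrix, was 8.73, 47.5, 5.05 and 48.5 CPM in E-Mac, against 0.497 to 0.737 CPM in Mac (5.48 ± 1.07, edgeR adjusted p = 0.00371). Tenascin C (Tnc) had 66, 311, 48 and 468 counts in E-Mac, against 2, 0, 2 and 0 in Mac (7.74 ± 1.37, edgeR adjusted p = 0.00195, and 7.07 on the log2 scale without E-Mac 4). Thbs2, the fibroblast relative of thrombospondin 1, had 22, 195, 28 and 167 counts in E-Mac and 0 in Mac, at least 148-fold higher (edgeR adjusted p = 0.0146, but 0.0693 without E-Mac 4 and 0.0744 with no filter). Ctgf, a secreted factor also named Ccn2, had 17, 189, 13 and 270 counts in E-Mac and 0 in Mac, at least 176-fold higher. Despite groups that did not overlap it missed the threshold (edgeR adjusted p = 0.0533), and it passed when E-Mac 2 and 4 were left out (edgeR adjusted p = 1.84e-05) and with DESeq2 and limma-voom (adjusted p = 5.7e-07 and 0.01). Its relative Cyr61 had 4, 82, 10 and 97 counts in E-Mac, against 6, 0, 0 and 0 in Mac. Fstl1 and periostin (Postn) had 8 to 296 and 2 to 111 counts in the E-Mac libraries, against 2 to 8 and 2 to 6 in the Mac libraries. All 3 fell short of the filter because E-Mac 1 or E-Mac 3 was low.

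Lysyl oxidase (Lox), which crosslinks collagen and elastin, was 4.68, 34.9, 5.66 and 43.3 CPM in E-Mac, against 0.932, 0.333, 0.369 and 0.247 CPM in Mac (5.51 ± 1.13, edgeR adjusted p = 0.00467). Loxl1 had 24, 73, 12 and 90 counts in E-Mac and 0 in Mac, at least 71.6-fold higher (edgeR adjusted p = 0.00147), and Loxl2, with 25, 66, 15 and 87 counts in E-Mac, against 2, 4, 1 and 0 in Mac, rose by 4.78 ± 0.77 (log2, edgeR adjusted p = 0.000225). Serpinh1, the collagen chaperone, had 42, 241, 27 and 193 counts in E-Mac, against 2, 0, 0 and 2 in Mac (6.90 ± 1.16, edgeR adjusted p = 0.000854). Without Mac 1 the Lox value was 6.10, and without Mac 2 that of Loxl2 was 5.64. In all 4 of these genes each E-Mac library lay above each Mac library. The secreted serpin Serpinf1 rose too, with 4.68, 7.63, 4.24 and 9.56 CPM in E-Mac, against 2.61, 0.916, 1.72 and 1.17 CPM in Mac (1.998 ± 0.34, edgeR adjusted p = 0.000251). Mmp2, a gelatinase, had 18, 49, 31 and 34 counts in E-Mac, against 24, 14, 30 and 19 in Mac. Its groups overlapped and the test was not passed (0.71 ± 0.31, edgeR adjusted p = 0.0659).

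Among the contractile genes, Acta2 stood out by its level in Mac. Acta2, which encodes smooth muscle actin, was 15.04, 36.4, 15.6 and 49.8 CPM in E-Mac, against 11.1, 10.9, 11.4 and 11.1 CPM in Mac. The 4 Mac values differed little, and Acta2 made up 4.93 to 13.6% of the counts of the 45 genes in E-Mac and 31.9 to 35.6% in Mac. It rose by 1.39 ± 0.39 (log2, edgeR adjusted p = 0.0135, but 0.0501 without E-Mac 2 and 0.0556 with no filter), and by 0.47 ± 0.13 without E-Mac 2 and 4 (adjusted p = 0.00363). Caldesmon (Cald1, 5.84 ± 1.15, edgeR adjusted p = 0.00279) and tropomyosin 2 (Tpm2, 3.89 ± 0.61, edgeR adjusted p = 0.000128) rose as well, with 24 to 249 and 16 to 85 counts in the E-Mac libraries, against 0 to 8 and 2 to 5 in the Mac libraries. Of the Cald1 counts of Mac most came from Mac 4, and without that library the log2 fold change was 7.52. Tagln, an actin-bundling protein of smooth muscle, had 11, 22, 13 and 19 counts in E-Mac, against 23, 6, 11 and 7 in Mac, with no call (0.58 ± 0.42, edgeR adjusted p = 0.256, though 0.0437 without Mac 1). Its exons share 1241 bases with those of the antisense gene Gm48529, and no source used here states whether counting used strand. Exons of Fbn1 and Ctgf overlap opposite-strand genes by 2442 and 665 bases in the same way. Myl9 had 7, 31, 2 and 41 counts in E-Mac and 0 in Mac, at least 29.1-fold higher, and Cnn1, which encodes calponin 1, had 0, 8, 2 and 18 counts in E-Mac, against 4, 0, 0 and 2 in Mac. Both were too low to test.

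Of the 3 surface receptors by which stromal cells are recognised, 0 passed the test and 2 were tested, with 38, 123, 40 and 126 counts for the 3 in E-Mac 1 to 4, against 48, 24, 66 and 60 in Mac 1 to 4. Pdgfra had 0, 16, 2 and 3 counts in E-Mac and 0 in Mac. Pdgfrb had 26, 48, 38 and 62 counts in E-Mac, against 24, 14, 46 and 30 in Mac (0.73 ± 0.32, edgeR adjusted p = 0.0630). Thy1 had 12, 59, 0 and 61 counts in E-Mac, against 24, 10, 20 and 30 in Mac (0.78 ± 0.81, edgeR adjusted p = 0.440). The groups overlapped in all 3 genes. Thy1 was below every Mac library in E-Mac 3 and above every one in E-Mac 2 and 4, so that leaving out E-Mac 2 and 4 turned its log2 fold change to -1.59 (edgeR adjusted p = 0.0593), and leaving out E-Mac 1 and 3 gave 1.62 (edgeR adjusted p = 0.000254).

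Levels were also compared per kilobase of exon, since longer genes collect more counts. Acta2 and Col1a1 had the highest means in E-Mac, at 13.3 ± 7.72 and 12.2 ± 10.8 CPM per kb (SD, n = 4). Sparc (7.25 ± 6.28), Lox (4.63 ± 4.17) and Col1a2 (4.11 ± 3.76) came next in CPM per kb, also within that spread. In Mac, Acta2 stood at 5.06 ± 0.0857 CPM per kb and the next genes, Serpinf1 and Col5a1, at 0.680 ± 0.318 and 0.567 ± 0.136. Exon lengths were the union of all annotated exons, which is long for genes with many transcripts (12.4 kb for Col1a2), so the levels of such genes are understated.

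The step between the E-Mac libraries ran through nearly the whole list. In 44 of the 45 genes both E-Mac 2 and E-Mac 4 lay above both E-Mac 1 and E-Mac 3. These were all 30 tested genes and 14 too low to test, some with very few counts, such as Dcn (0, 2, 0 and 2 in E-Mac). Among all genes tested this order held for 25.8% and the opposite for 33.0%. E-Mac 1 and 3 were nevertheless both above all Mac libraries in 27 of the 45 genes, the untested Col11a1, Fstl1 and Myl9 among them (35.3% of all genes tested). Without E-Mac 2 and 4, all 23 called genes kept their call and Ctgf joined them, which made 24 higher of 30 tested (edgeR, 30.8% of all genes tested in that fit were higher). Fold changes were then smaller. Col1a1 was 4.11 ± 0.22, Sparc 3.49 ± 0.33, Lox 3.42 ± 0.39 and Col5a1 1.21 ± 0.20 on the log2 scale. Without E-Mac 1 and 3 instead, 37 of 38 tested genes were higher (28.2% of all genes in that fit). That fit kept the E-Mac libraries already seen to be high. The genes it added, such as Fstl1 and Postn, had no Mac library at 0.656 CPM. Like the 15 described above they had to be higher, so the 2 shares are not alike.

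**Figure D2:**
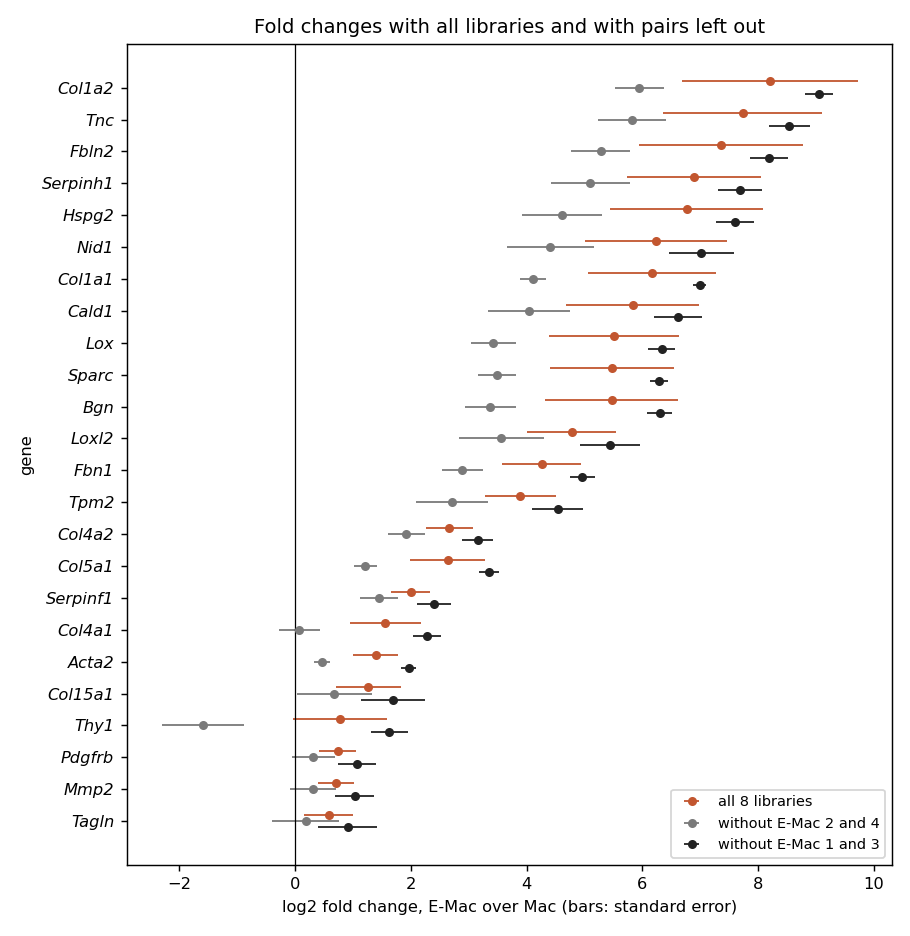
Log2 fold change, E-Mac over Mac, with its standard error for the 24 tested genes that had more than 3 counts in Mac, from all 8 libraries (orange), without E-Mac 2 and 4 (grey) and without E-Mac 1 and 3 (black). Grey points lie left of the others, yet stay right of 0 for all but Thy1 at -1.59, with Col4a1 at 0.075.

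For most of the genes with many counts, the ratio to Col1a1 varied little across the E-Mac libraries, and for others it varied widely. For the 20 genes besides Col1a1 that had 400 or more counts in E-Mac, the ratio of their counts to those of Col1a1 was taken in each E-Mac library. Between the highest and the lowest library this ratio differed by 1.62-fold at the median and by less than 2-fold in 14 of the 20 genes, while the other 6 reached 2.19-fold to 4.43-fold. Genes with fewer counts, where every E-Mac library had some, ran from 2.27-fold for Loxl1 and 2.44-fold for Col6a3 to the widest spreads. These were Pdgfrb (7.17-fold), Mmp2 (7.96-fold) and Col15a1 (8.65-fold), which had 114, 87 and 36 counts in Mac, against 0 for Loxl1 and 2 for Col6a3. Spreads were also wide in genes with few counts in Mac, such as Col11a1 (5.17-fold, 0 counts) and Postn (6.35-fold, 12 counts). A link between the spread and the Mac counts was not tested. Of 9182 other tested genes with 400 or more counts in E-Mac, 2 (0.0218%) stayed under 2-fold, and the median was 10.2-fold. A gene that is even across the E-Mac libraries has a wide ratio by arithmetic, because Col1a1 itself ran from 15.2 to 142 CPM. This contrast therefore largely restates the step between the E-Mac libraries. As all these ratios are to a gene of the same list in the same libraries, they are given as a description. Sparc stood at 37.7, 33.8, 33.2 and 34.2 counts per 100 Col1a1 counts in E-Mac 1 to 4, Col1a2 at 50.8, 63.9, 62.4 and 65.6, and Col3a1 at 9.43, 13.5, 11.9 and 13.5. These 3 hardly moved although Col1a1 itself ran from 15.2 to 142 CPM.

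Acta2, Fstl1 and Col4a2 departed most from this. Acta2 stood at 65.0, 25.8, 102 and 35.1 counts per 100 of Col1a1. After the Mac mean had been subtracted from both genes, the Acta2 excess was 17.8, 18.1, 31.5 and 27.5 per 100 of the Col1a1 excess, a 1.77-fold range. For Col5a1 the excess was 31.6, 25.3, 38.5 and 36.7. After subtraction, 16 of the 19 genes with 400 or more E-Mac counts and an excess in every E-Mac library were under 2-fold. The other 3 of these 19 were Col4a2, Fstl1 and Ctgf. Col4a1 was left out here because E-Mac 3 lay below its Mac mean. Of the genes with fewer counts and an excess in every E-Mac library, Tagln stayed under 2-fold (1.92-fold). The others ran from 2.36-fold (Loxl1) to 6.82-fold (Col6a1). The Col4a2 excess was 22.6, 5.25, 17.3 and 9.72 per 100 of the Col1a1 excess, relatively high in E-Mac 1 and 3. That of Fstl1 was 10.4, 13.1, 1.77 and 14.9, relatively low in E-Mac 3, where the gene had 8 counts, and Ctgf was relatively low in E-Mac 1 and 3 (6.02, 9.31, 6.21 and 13.8). Serpinf1, with fewer counts, resembled Col4a2, at 13.9, 4.32, 18.7 and 5.65.

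**Figure D3:**
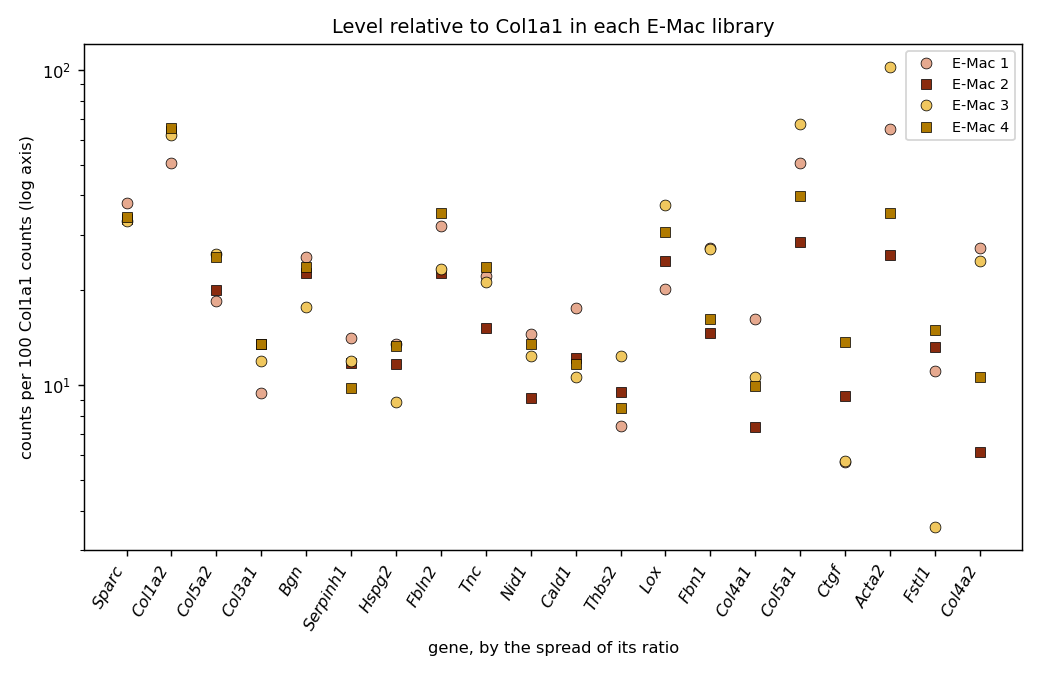
Counts of 20 genes per 100 Col1a1 counts in each E-Mac library (log axis), ordered by the fold between the highest and the lowest library. Points of the 4 libraries lie close together from Sparc (1.14-fold) to Fbn1 (1.87-fold) and spread apart for Acta2, Fstl1 and Col4a2 (3.96-fold, 4.24-fold and 4.43-fold).

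Promoter sequence is shown for Col3a1, Bgn and Serpinh1, which stand for a collagen, a proteoglycan and the collagen chaperone. Among the genes that had a RefSeq window, they are the 3 with the steadiest ratio to Col1a1 whose window touches none of their own annotated exons. Windows were the 250 bases before the RefSeq start (GRCm38.p6, the mm10 build), and exons of other genes were not checked. Capitals mark TATAAA, the core of the TATA box, and CCAAT, the box bound by the factor NF-Y, each searched on both strands, with no overlap between them here.
Col3a1, chr1:45311288-45311537, plus strand: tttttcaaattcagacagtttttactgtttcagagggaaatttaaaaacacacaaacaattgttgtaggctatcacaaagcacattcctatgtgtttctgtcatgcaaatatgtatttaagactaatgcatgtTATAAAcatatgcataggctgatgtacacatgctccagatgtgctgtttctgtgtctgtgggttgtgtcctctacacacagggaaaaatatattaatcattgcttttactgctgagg
Bgn, chrX:73483351-73483600, plus strand: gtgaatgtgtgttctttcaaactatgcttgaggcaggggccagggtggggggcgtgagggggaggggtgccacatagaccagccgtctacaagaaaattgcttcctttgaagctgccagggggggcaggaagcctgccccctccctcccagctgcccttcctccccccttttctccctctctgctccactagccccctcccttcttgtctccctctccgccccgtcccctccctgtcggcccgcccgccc
Serpinh1, chr7:99353240-99353489, minus strand: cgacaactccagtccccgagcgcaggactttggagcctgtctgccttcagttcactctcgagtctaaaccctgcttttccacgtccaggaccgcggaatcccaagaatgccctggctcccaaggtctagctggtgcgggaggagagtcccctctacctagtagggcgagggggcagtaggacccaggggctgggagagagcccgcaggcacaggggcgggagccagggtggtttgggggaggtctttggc
Of these 3 windows 1, that of Col3a1, held a TATAAA and 0 held a CCAAT. RefSeq windows were at hand for 32 of the 45 genes. TATAAA was found in 7 of their 37 windows (18.9%) and CCAAT in 11 (29.7%), against 12.4% and 33.8% of all 32851 promoter windows in the table.

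Other lists of the matrix and of cell types were set beside the 45 genes. Of 28 collagen modification and secretion genes 8 rose and 3 fell, among 16 tested, and the list summed to 1349 to 1735 CPM in E-Mac, against 1154 to 1209 CPM in Mac. The prolyl hydroxylase subunit P4ha1 (1.29 ± 0.12), the lysyl hydroxylase Plod1 (0.98 ± 0.10) and Crtap (1.20 ± 0.15), part of a prolyl hydroxylase complex, rose, with a largest edgeR adjusted p of 1.98e-05. All 3 were higher in E-Mac 1 and 3 than in E-Mac 2 and 4, with P4ha1 at 115, 96.3, 111 and 73.3 CPM in E-Mac 1 to 4 and 39.7 to 41.0 CPM in Mac. By gene the order was mixed. In 15 of the 28 genes, many of them low, E-Mac 2 and 4 both lay above E-Mac 1 and 3, and in 6 the reverse. Of 19 other collagens 4 were tested. Col5a3 rose (3.58 ± 0.72, edgeR adjusted p = 0.00119), and Col7a1 (-1.52 ± 0.23) and Col27a1 (-1.40 ± 0.24) fell (edgeR adjusted p = 7.04e-05 and 0.000205).

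The 34 other matrix glycoproteins and proteoglycans summed to 10746 to 14659 CPM in E-Mac, against 5910 to 6583 CPM in Mac, and 9 rose and 3 fell among 14 tested. Thbs1 (thrombospondin 1) and Tgfbi, an adhesion protein induced by TGF-beta, rose (3.52 ± 0.20 and 1.38 ± 0.10), and fibronectin (Fn1, -2.15 ± 0.14) fell (edgeR adjusted p = 9.78e-08, 9.37e-08 and 4.48e-08). All 3 were higher in E-Mac 1 and 3 than in E-Mac 2 and 4, the opposite order to Thbs2 and Sparc. Of the 34 genes, however, 11 were higher in both E-Mac 2 and 4 than in E-Mac 1 and 3, and 7 had the reverse order. Of 21 other contractile and cytoskeletal genes 5 rose and 7 fell among 18 tested. Tpm1 rose (0.78 ± 0.10) and smoothelin (Smtn, -2.03 ± 0.14) and vinculin (Vcl, -1.06 ± 0.13) fell (largest edgeR adjusted p = 3.40e-05).

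Among 20 MSC surface and niche markers 4 rose and 3 fell, of 7 tested, and the summed level was 300.2, 296, 297 and 246 CPM in E-Mac 1 to 4, against 96.0 to 117 CPM in Mac. Most of the sum was Ly6a (3.99 ± 0.10), with 223, 222, 221 and 184 CPM in E-Mac 1 to 4 and 11.2 to 15.4 CPM in Mac. It encodes an interferon-responsive surface antigen that leukocytes also carry. Nt5e (2.54 ± 0.15) also rose and Vcam1 (-1.997 ± 0.18) fell (largest edgeR adjusted p = 1.81e-06). Ly6a and Nt5e did not follow the step between the E-Mac libraries. In 9 of the 20 genes E-Mac 2 and 4 both lay above E-Mac 1 and 3, and in 4 the reverse. Eng (0.64 ± 0.16) and Fap (0.92 ± 0.27) rose too, and Mcam (-2.59 ± 0.42) and Angpt1 (-1.17 ± 0.275) fell (largest edgeR adjusted p = 0.0108). Eng was higher in E-Mac 1 and 3 (24.6 and 20.1 CPM) than in E-Mac 2 and 4 (17.5 and 14.4 CPM). Several other stromal genes of the list were low. Twist1, Twist2 and Grem1 had 0 counts in Mac and at most 4, 5 and 28 counts in any E-Mac library, the leptin receptor gene Lepr was at most 0.369 CPM in any library, and the transcription factor gene Prrx1 was 0.935, 5.50, 0.0673 and 2.73 CPM in E-Mac, against 0 to 0.167 CPM in Mac. Prrx1 and Grem1 were both higher in E-Mac 2 and 4 than in the other 6 libraries, and their part in the step of the matrix genes was not tested. The niche chemokine Cxcl12 was 0 to 0.288 CPM in E-Mac and 0.583 to 2.30 CPM in Mac.

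Macrophage core markers summed to 21507, 21547, 22788 and 19102 CPM in E-Mac 1 to 4, against 21146 to 22681 CPM in Mac. Lyz2, which encodes lysozyme, held the most counts and fell (-0.87 ± 0.10), with means of 6147 CPM in E-Mac and 11204 CPM in Mac, whereas most others rose. In this list 12 of 18 genes rose and 2 fell, with Cd14 (2.57 ± 0.10), Fcgr1 (2.52 ± 0.14) and Adgre1 (1.01 ± 0.085, largest edgeR adjusted p = 3.33e-07). Granulocyte markers summed to 9831, 15764, 10344 and 13387 CPM in E-Mac 1 to 4, against 32088 to 35701 CPM in Mac, and 11 of 14 fell and 0 rose, with Fcnb (-3.40 ± 0.12), Camp (-2.91 ± 0.14) and Ngp (-2.48 ± 0.16) first (largest edgeR adjusted p = 6.48e-08). Within E-Mac this sum was higher in libraries 2 and 4, as were 8 of the 14 genes, S100a8 and S100a9 among them, while 4, including Elane and Mpo, had the opposite order. Its part in the step of the matrix genes was not tested. Of 13 endothelial markers 3 rose and 3 fell among 7 tested. Pecam1 (1.02 ± 0.14) and Kdr (4.37 ± 0.14) rose and Erg (-2.31 ± 0.21) fell (largest edgeR adjusted p = 5.96e-05). Cdh5 rose too (3.56 ± 0.53, edgeR adjusted p = 6.73e-05), with 135 counts in E-Mac and 12 in Mac, and Tie1 and Vwf fell. Cldn5, Emcn and Sox17 had 0 counts in E-Mac, but only 2, 4 and 0 counts in Mac. Of 14 skeletal and fat lineage markers 3 were tested. Spp1 (6.55 ± 0.32) and Lpl (0.50 ± 0.14) rose (edgeR adjusted p = 1.94e-07 and 0.00874) and Runx2 did not pass (0.11 ± 0.15, adjusted p = 0.556), while Sp7, Dmp1 and Acan had 0 counts in all 8 libraries.

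**Figure D4:**
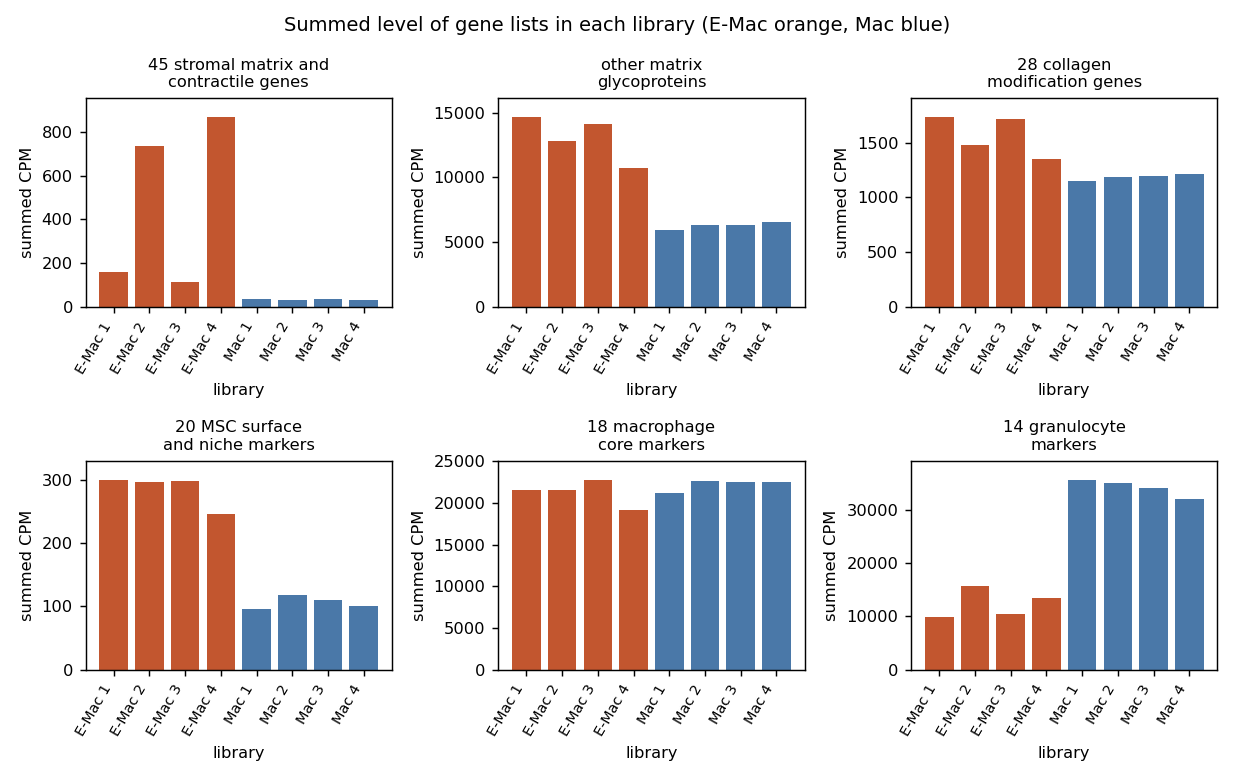
Summed CPM of 6 gene lists in each library, E-Mac in orange on the left and Mac in blue on the right, with bars starting at 0. The 45 stromal matrix and contractile genes step up in E-Mac 2 and 4 (738 and 870 CPM), whereas the sums of the other matrix and collagen modification lists are highest in E-Mac 1 and 3. Gene by gene, more members of these lists were higher in E-Mac 2 and 4 (11 of 34 and 15 of 28) than in E-Mac 1 and 3 (7 and 6).

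A search for other genes with the profile of the list covered the 59 further tested genes with at least 5 CPM in E-Mac and a Mac mean under 5% of the E-Mac mean. Each gene's 4 shares over the E-Mac libraries were set against those of the 45 genes summed (8.4, 39.3, 6.1 and 46.2% in E-Mac 1 to 4), and the distance was the sum of the absolute differences, as fractions. The median distance was 0.863 over the 59 genes. Of the 59, 3 lay within 0.2. These were Aebp1, a collagen-binding matrix protein gene (0.0527), Timp1, an inhibitor of matrix metalloproteinases (0.162), and the cytochrome P450 gene Cyp1b1 (0.179). Aebp1 had 37, 147, 20 and 164 counts in E-Mac and 0 in Mac, at least 132-fold higher (edgeR adjusted p = 0.00565). Timp1 had 73, 216, 63 and 318 counts in E-Mac, against 2, 1, 0 and 0 in Mac. After these came a gap to Peg10 (0.363), Cacnb3 (0.404), Fscn1 (0.432), Ccr7 (0.433), Ccl22 (0.444), Slc24a3 (0.447) and Hic1 (0.460), whose E-Mac libraries differed less. In 37 of the 59 genes E-Mac 1 and 3 lay above E-Mac 2 and 4, and in 12 the reverse.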

How the data were processed

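PolyA RNA libraries were made with the VAHTS mRNA-seq V3 kit from RNA of the RNeasy micro kit, per the labels' protocols. The authors deposited 1 table of raw counts per gene symbol for 8 libraries. Per the submitters' processing notes the tools were HISAT2, featureCounts of Subread, bcl2fastq and DESeq2 and the build was mm10, with no versions or roles. No source used here gives the annotation or the strand, multi-mapping and read-pair settings. From these counts 26 names in the form of dates were left out (0.133 to 0.160% of a library).

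Differences were tested in R 4.3.3 by edgeR 4.0.16 (filterByExpr with a minimum count of 10 and total of 15, TMM, robust quasi-likelihood fit, Benjamini-Hochberg over 13412 genes, standard error as the log2 fold change over the square root of F). The procedure was first tested on simulated data. Positions and exon lengths came from GENCODE M21 (mm10), promoters from RefSeq. The 45 genes, lists and tests were chosen with earlier results of these data known. Named were all 45 genes, the 3 genes with the smallest adjusted p of each other list, and the 10 genes most alike in E-Mac profile. Others named by their values were chosen after these were seen. Alternatives were RLE, upper-quartile and library-size scaling, a minimum of 10 CPM in 4 libraries or no filter, limma-voom (limma 3.58.1), DESeq2 1.42.0, no robust option, a replicate block, each library left out, E-Mac 2 and 4 or 1 and 3 left out, an adjusted p under 0.01 and, chosen after seeing the data, halved counts.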

Additional observations from a re-analysis of the deposited data

Results flagged for a closer look

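In groups of 4 libraries, a library was singled out when its gap to the nearest other, divided by the range of the group, exceeded Dixon's 95% critical value. Of 92 groups examined 7 met this, all with 13 or fewer counts per library. Chance gives about 1 in 20 for continuous values, a rate that does not apply to such tied low counts. In 6 of the 7 the other 3 libraries were at 0. In 5 genes 1 Mac library alone had counts. These were Nid1 (0.435 CPM), Col6a1 (0.248 CPM) and Cyr61 (0.373 CPM) in Mac 1, and Col5a2 and Col6a3 (0.123 CPM each) in Mac 3. Col15a1 was low in Mac 4 (0.0616 CPM). Among E-Mac libraries, Lum was counted in E-Mac 2 alone (0.275 CPM).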

How the results depend on the processing

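Of the 45 genes, 23 were higher in E-Mac, and 18 to 30 under the alternatives, except 2 with a minimum of 10 CPM in 4 libraries, where only 2 of the 45 were tested, and 37 without E-Mac 1 and 3, where 38 were tested. Leaving out 1 library gave 21 to 29 higher. In every alternative 0 were lower. Of the 23 calls, 19 held in each of the 20 alternative fits in which the gene was tested. Over all genes 7814 differed, and 5890 to 8496 under the alternatives, with 7233 to 7986 when 1 library was left out. Replicate numbers are shared between the groups. Deviations of same-numbered libraries from their group means had correlations across genes of -0.0434, 0.0282, 0.0149 and -0.106. Such correlations, from 4 pairs, cannot exclude a shared origin of same-numbered libraries. With the replicate block, 25 of the 45 genes were higher and 7458 genes differed. Thy1 reversed with limma-voom (-0.68) and without E-Mac 2 and 4 (-1.59). Runx2 reversed with library size only (-0.033) and without E-Mac 2 and 4 (-0.24). The causes were not tested. Depth limits the 15 genes too low to test, and halved counts left 22 of the 45 testable, of which 18 were higher.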
